A study of Mus musculus with 15 samples.

Results

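The transcriptomes of E0771 cells carrying 2 Malt1 mutants with neighbouring substitutions, Malt1_V87R and Malt1_L88D, were compared with each other. E0771 is a mouse mammary cancer line. The comparison rests on 6 libraries, 3 for each mutant, chosen by their labels from 15 libraries in all, and it covers every gene of the count table. The other groups of 3 are an empty vector control (Vector), wild-type Malt1 (Malt1_WT) and a construct labelled Malt1_PD, and Vector and Malt1_WT serve here as reference levels. In Malt1_V87R, valine 87 of the protein is replaced by arginine, and in Malt1_L88D, leucine 88 is replaced by aspartate. All groups share the parental line and differ, per the labels, in the construct alone; no treatment is named. Neither the origin of the replicates (separate cultures or a split one) nor the kind of line (pooled or clonal) is stated in the labels. The p-values therefore measure library-to-library spread, which may be technical, and an effect of a construct and a difference between cell lines cannot be told apart.

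MALT1 is a scaffold and a protease. Through its death domain it binds BCL10, and CARD proteins trigger BCL10 to polymerise into filaments that carry MALT1. The filaments recruit TRAF6, which leads to activation of the IKK kinase and of NF-kB, a family of transcription factors that switches on cytokines, chemokines and its own inhibitors. The caspase-like domain of MALT1 cuts RNA-decay factors and inhibitors of the same pathway. Both substitutions are in the death domain, and a direct comparison asks whether the lines they define differ from each other in any gene or pathway.

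Totals of the 6 libraries, in units of 1e+06 counts, lay between 15.8 and 21.5, and 14571 of 55571 gene rows had enough counts to be tested. Levels are CPM, counts per 1e+06 counts of a TMM-scaled total, and they are not divided by gene length, so they are compared here between libraries and not between genes. Differences are log2 values of Malt1_V87R over Malt1_L88D with their standard error (SE) from edgeR's quasi-likelihood fit of all 15 libraries. RNA was taken from bulk cultures, in which fewer cells of a kind and less RNA per cell cannot be told apart. Vim, an intermediate filament gene of mesenchymal cells, had 3644, 3623 and 3733 CPM in Malt1_V87R and 3669, 3655 and 3660 CPM in Malt1_L88D.

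A pair of promoters is shown as examples of sequences that hold a motif of the NF-kB or the interferon type. They are the 250 bases before the RefSeq start (GRCm38.p6), 5′ to 3′ on the gene's strand, of Il6, a cytokine gene of the NF-kB list, and Cxcl10, a chemokine gene known for its response to interferon. Capitals mark a match to GGGNNTTTCC, an NF-kB type motif, in Il6 (chr5:30012864-30013113, plus strand) and to TTTCNNTTTC, the core of an interferon-stimulated response element, in Cxcl10 (chr5:92348890-92349139, minus strand; the match lies on the other strand of the gene).
Il6: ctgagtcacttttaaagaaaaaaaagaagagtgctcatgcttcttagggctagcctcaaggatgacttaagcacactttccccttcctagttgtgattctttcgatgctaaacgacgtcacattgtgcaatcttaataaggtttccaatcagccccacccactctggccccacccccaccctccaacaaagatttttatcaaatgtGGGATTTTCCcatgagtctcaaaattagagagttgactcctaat
Cxcl10: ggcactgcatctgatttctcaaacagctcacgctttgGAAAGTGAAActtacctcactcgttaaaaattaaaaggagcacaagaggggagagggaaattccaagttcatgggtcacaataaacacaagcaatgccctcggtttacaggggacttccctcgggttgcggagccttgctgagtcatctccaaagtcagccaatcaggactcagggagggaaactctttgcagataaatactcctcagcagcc

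Searched on both strands of the same window, the NF-kB type motif was in 1.41% of 32851 RefSeq promoters and in 8 of the 31 tested NF-kB list genes with an entry. The interferon-type motif was in 2.98% of all promoters and in 16 of the 30 tested interferon-stimulated genes with an entry. A list gene was counted when any of its promoters held a match, while the share over all counts each promoter. The units are therefore unlike, which favours the lists. Neither printed window holds a match to the other motif, and a match describes the sequence only.

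Malt1 mRNA was high in both mutants, and the small difference between them did not pass the test. Malt1 (ENSMUSG00000032688, chromosome 18) had 279, 279 and 281 CPM in Malt1_V87R and 258, 245 and 251 CPM in Malt1_L88D. The groups did not overlap. Vector libraries had 26.4 to 30.2 CPM, the background of the cells' own gene, and Malt1_WT libraries 193 to 208 CPM, so both mutants were above Malt1_WT. The mutants differed by 1.11-fold (log2 0.15 ± 0.04 SE, 95% interval 0.07 to 0.24), with an adjusted p of 0.66 in edgeR over all genes. Counts per gene symbol do not separate the construct from the cells' own gene, and these are mRNA levels, not protein.

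No gene passed the test between the mutants. Of 14571 genes, 0 (0%) had an adjusted p under 0.05 in edgeR's quasi-likelihood test, and the smallest adjusted p was 0.42. DESeq2 and limma-voom also called 0 genes. At an unadjusted p under 0.05 there were 852 genes, 5.85% of those tested, with 453 higher in Malt1_V87R and 399 higher in Malt1_L88D. Against Vector, in the same fit, 1706 genes were called for Malt1_V87R (1021 higher, 7.01%, and 685 lower, 4.7%) and 2534 for Malt1_L88D (1306 higher, 8.96%, and 1228 lower, 8.43%). Against Malt1_WT, 7036 genes were called for Malt1_V87R (3625 higher, 24.9%, and 3411 lower, 23.4%) and 6568 for Malt1_L88D (3320 higher, 22.8%, and 3248 lower, 22.3%). These comparisons share control libraries, so their counts are set side by side and not tested against each other. Without replicate 2 of Malt1_V87R, its count against Vector was 1130.

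The libraries in the fit and the filter on low counts changed whether any gene was called between the mutants. Fitted on the 6 libraries alone, edgeR called 25 genes, 14 higher in Malt1_V87R and 11 higher in Malt1_L88D. The filter, applied to these 6 libraries, then also kept other genes, such as 10 in place of 16 macrophage and dendritic cell markers. Most differences of the 25 called genes were small: 4 were apart by more than 25%, and 2 by more than 50%. The largest was that of Csf1r, higher in Malt1_L88D (log2 -1.76, adjusted p = 0.033). The 25 also included Malt1 (adjusted p = 0.022), Nos2 (adjusted p = 0.0012) and 4 mitochondrially encoded genes. In the fit of 15 libraries, the whole 95% interval of 17 of these 25 genes kept the mutants within 25% of each other, and that of 22 within 50%. Without replicate 1 of Malt1_L88D, 2 genes were called, Apoe and Csf1r. With no filter on low counts, 5 were called: Ctss, Apoe, Nos2, Gm10095 and Csf1r.

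Because a p that misses the threshold does not show equality, each gene was also given a bound. A gene was counted as held within 25%, 50% or 2-fold when its whole 95% interval allowed the higher mutant to be at most that far above the lower one, in either direction. On this rule 8537 genes (58.6%) were held within 25%, 10635 (73%) within 50% and 12431 (85.3%) within 2-fold. For reference, 7213 genes were held within 25% between Malt1_V87R and Vector, 6697 between Malt1_L88D and Vector, and 4118 and 4307 between each mutant and Malt1_WT.

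The bound a gene could reach followed its level. Of 2417 genes at a mean of 100 CPM or more over the 6 libraries, 2371 were held within 25% and all within 2-fold. From 20 to 100 CPM, 4685 of 4850 were held within 25%, and from 5 to 20 CPM, 1464 of 2554. From 1 to 5 CPM, 17 of 2318 were held within 25% and 2094 within 2-fold. Under 1 CPM, none of 2432 genes was held within 25% and 519 were held within 2-fold. Among all 9821 genes at 5 CPM or more, 9818 were held within 2-fold. The 3 that were not are Lyz2, Apoe and Mir703, a small RNA gene. Lyz2 and Apoe, which encode macrophage lysozyme and a lipid carrier, return below.

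**Figure D1:**
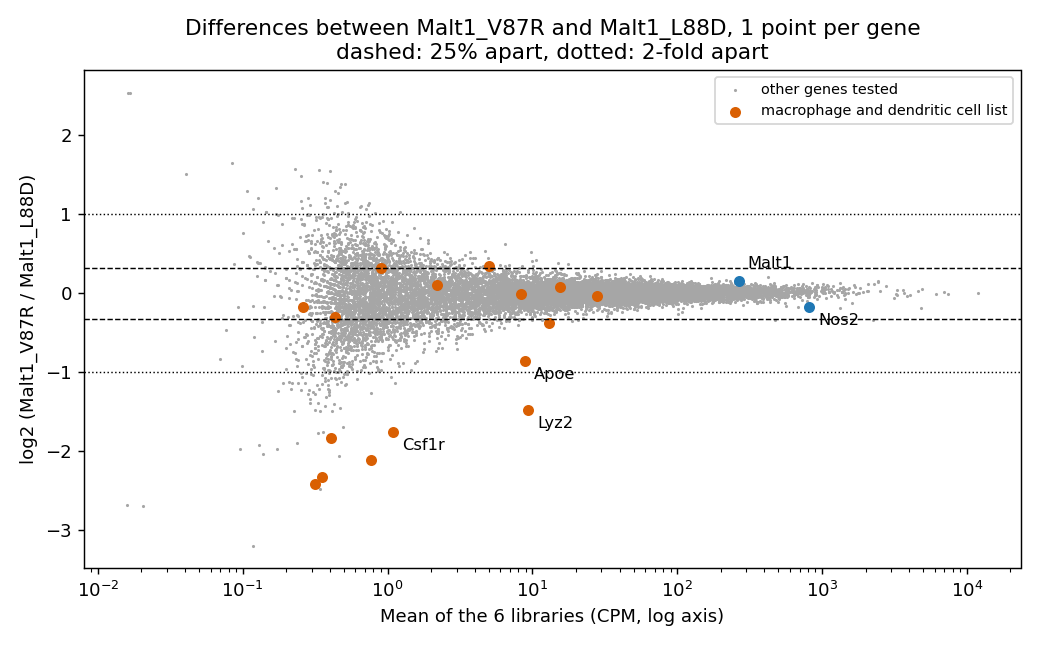
Each point is 1 of 14571 genes, with the mean level of the 6 libraries in CPM on a log axis and the log2 difference between Malt1_V87R and Malt1_L88D on the vertical axis; dashed lines are at 25% and dotted lines at 2-fold. Points spread widely under 1 CPM and close up above 20 CPM, while Csf1r, Lyz2 and Apoe of the macrophage and dendritic cell list (orange) lie lower, towards Malt1_L88D.

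Genes of the NF-kB pathway were at nearly the same intermediate level in both mutants. Of 44 tested NF-kB target genes, 35 were held within 25%, 41 within 50% and 43 within 2-fold, and the median difference was 0.04 log2, beside 0.005 for all genes. None was called; 8 had an unadjusted p under 0.05, of which 6 were higher in Malt1_V87R and 2 in Malt1_L88D. The list's medians against Vector were 0.43 for Malt1_V87R and 0.41 for Malt1_L88D, with 31 and 30 genes higher and 0 and 1 lower. Against Malt1_WT they were -1.26 for each mutant, with 39 of 44 lower in each. The gene whose interval reached past 2-fold was Il1b, at 0.19 to 0.28 CPM in all 6 libraries, where the counts are too few to set a narrow bound.

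Individual inflammatory genes differed by small steps, and in both directions. Ier3, an immediate-early stress gene of the list, had 991, 1026 and 1100 CPM in Malt1_V87R and 1059, 1092 and 1110 CPM in Malt1_L88D. The groups overlapped, and the interval held the gene within 1.12-fold. Nos2, inducible nitric oxide synthase (chr11:78920787-78960254), had 764, 757 and 783 CPM in Malt1_V87R and 842, 864 and 903 CPM in Malt1_L88D. The groups did not overlap, and both lay between Vector (304 to 347 CPM) and Malt1_WT (2269 to 2422 CPM). The difference was -0.18 ± 0.04 SE log2, with an adjusted p of 0.42 and an interval of -0.26 to -0.10, which keeps it within 1.2-fold.

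Among other members, chosen after their values were seen, Cxcl1 and Nfkbia leaned the other way and Lif did not. Cxcl1, a neutrophil-attracting chemokine, had 298, 293 and 309 CPM in Malt1_V87R and 268, 275 and 286 CPM in Malt1_L88D, against 194 to 208 in Vector and 1694 to 1811 in Malt1_WT. Nfkbia, the IkB-alpha inhibitor that NF-kB induces to restrain itself, had 248, 245 and 245 CPM in Malt1_V87R and 225, 220 and 238 CPM in Malt1_L88D, both near Vector at 234 to 242. The groups did not overlap for either gene, and the intervals lay within 1.15-fold for Cxcl1 and 1.14-fold for Nfkbia. Il6, whose promoter is printed above, had 40.2, 42.9 and 35.5 CPM in Malt1_V87R and 38.5, 33.9 and 36.2 CPM in Malt1_L88D, and the groups overlapped. Lif, a cytokine of the same family, was lower in Malt1_V87R, with 30.8, 30.9 and 34.1 CPM against 33.8, 40.0 and 39.5. Both mutants were far below Malt1_WT for Il6 (log2 -2.88 and -3.01) and for Lif (-3.22 and -2.97).

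Cytokines and chemokines were less tightly bounded, and 13 of the 30 tested were under 5 CPM. Of these 30 genes, 14 were held within 25%, 22 within 50% and 26 within 2-fold, with a median difference of 0.00. Without replicate 3 of Malt1_V87R, 8 were held within 25%, and without replicates 2 and 3 of Malt1_L88D, 7 were. Ccl2 and Ccl7, monocyte-attracting chemokines and the members of highest level, were tightly held. Ccl2 had 703, 679 and 713 CPM in Malt1_V87R and 705, 650 and 694 CPM in Malt1_L88D, and Ccl7 had 400, 407 and 410 against 393, 385 and 393 CPM. Their intervals lay within 1.09-fold and 1.10-fold. The 4 members that reached past 2-fold, Il1b, Il12b, Ccl9 and Cxcl11, had about 1 CPM or less in each of the 6 libraries. Cxcl9, a T cell-attracting chemokine, had 37.9, 36.8 and 34.9 CPM in Malt1_V87R and 31.2, 28.1 and 34.3 CPM in Malt1_L88D. It was under 1 CPM in every Vector library and at 155 to 171 CPM in Malt1_WT.

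The genes of the MALT1 module itself did not separate the mutants beyond Malt1. Of 15 tested members of the CARD-BCL10-MALT1 complex, 13 were held within 25% and all 15 within 2-fold. Bcl10, the filament-forming partner, had 86.9, 88.2 and 84.5 CPM in Malt1_V87R and 86.3, 85.1 and 83.5 CPM in Malt1_L88D. Tab2, an adaptor of the TAK1 kinase, had 190, 202 and 193 CPM against 204, 197 and 192. Of 13 tested genes whose proteins MALT1 cuts, 11 were held within 25%, and 6 were without replicates 2 and 3 of Malt1_L88D. Zc3h12a, encoding the RNA-decay factor Regnase-1, was at 102, 101 and 103 CPM in Malt1_V87R and at 99.9, 94.3 and 104 CPM in Malt1_L88D. Zc3h12d, a relative at 0.40 to 1.33 CPM, was the only one of the 13 not held within 2-fold.

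Interferon-stimulated genes were raised in both mutants, to levels that could hardly be told apart. All 42 members were tested, of which 39 were held within 25% and 42 within 50%, and the median difference was -0.01. Against Vector, 37 were higher in Malt1_V87R (median 0.66) and 38 in Malt1_L88D (median 0.70). Against Malt1_WT the medians were 0.00 and 0.02, with called differences in both directions. In Malt1_V87R 14 of the 42 were higher and 12 lower than in Malt1_WT, and in Malt1_L88D 13 and 12. Gbp2, an interferon-induced GTPase, had 389, 393 and 373 CPM in Malt1_V87R and 370, 359 and 377 CPM in Malt1_L88D, against 46.9 to 53.2 in Vector and 454 to 486 in Malt1_WT. Parp14, a mono-ADP-ribosyltransferase, had 380, 374 and 365 CPM against 387, 358 and 370 CPM. In both genes the mutants overlapped each other and did not overlap Vector.

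Cxcl10, whose promoter is printed above, had 135, 119 and 130 CPM in Malt1_V87R and 132, 120 and 129 CPM in Malt1_L88D. Its difference of 0.01 ± 0.07 SE log2 was held within 1.12-fold, and both mutants were higher than Vector, by 2.73 and 2.72 log2. Single interferon genes with an unadjusted p under 0.05 went both ways, 2 in each direction. Oas3, which senses double-stranded RNA, had 145, 142 and 140 CPM in Malt1_V87R and 157, 157 and 155 CPM in Malt1_L88D. Gbp5, another guanylate-binding GTPase, had 135, 128 and 129 CPM against 118, 114 and 127. Neither passed the adjusted threshold.

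Antigen presentation by MHC class I followed the same pattern. Of 21 tested genes, 20 were held within 25% and 21 within 50%, with a median difference of 0.03, while the medians against Vector were 0.79 in both. B2m, the invariant light chain, had 1108, 1130 and 1121 CPM in Malt1_V87R and 1116, 1097 and 1118 CPM in Malt1_L88D, and its interval lay within 1.06-fold. Canx, the chaperone calnexin, was held within 1.09-fold. Tap1, a subunit of the peptide transporter, had 245, 239 and 234 CPM against 234, 231 and 237 CPM, with Vector at 77.1 to 85.4 CPM.

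**Figure D2:**
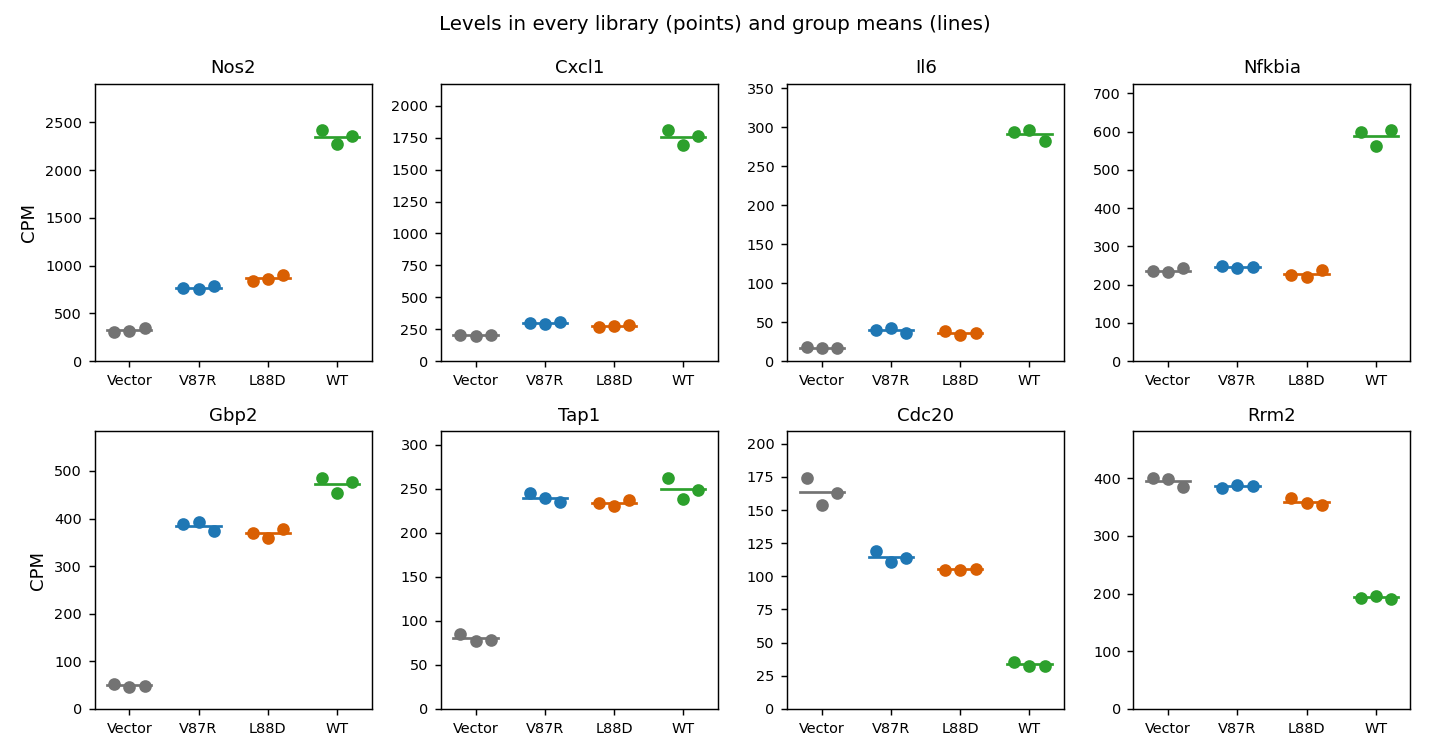
Levels in CPM (vertical axes from 0) of 8 genes in the 3 libraries (points) and the mean (line) of Vector, Malt1_V87R, Malt1_L88D and Malt1_WT. The mutants lie close together in each panel: well below Malt1_WT for Nos2, Cxcl1, Il6 and Nfkbia, near it for Gbp2 and Tap1, and above it for Cdc20 and Rrm2.

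The direction of the small differences was not even across lists. AP-1 and immediate-early genes, which respond to growth factors and stress, were higher in Malt1_L88D in 19 of 22 tested members, beside 47.9% of all genes. The list's median was -0.06, none was called, and 16 were held within 25%. Without replicate 2 of Malt1_L88D, 14 of the 22 were higher in Malt1_L88D. Fosl1, an AP-1 subunit, had 34.9, 34.4 and 38.0 CPM in Malt1_V87R and 40.8, 41.8 and 41.8 CPM in Malt1_L88D. The groups did not overlap, and the difference was -0.21 ± 0.06 SE log2. Dusp6, a phosphatase induced by ERK signalling, had 119, 123.1 and 119 CPM against 134, 126 and 143 CPM. The members of highest level did not separate: Ier3 is given above, and Myc had 557, 569 and 591 CPM against 589, 598 and 578 CPM. Members of 1 list are regulated together and do not count as independent, so the share is a description.

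Cell division genes leaned towards Malt1_V87R. In the G2/M list, all 29 tested genes were held within 25%, with a median difference of 0.05, and 27 were higher in Malt1_V87R. Without replicates 2 and 3 of Malt1_L88D, 8 of the 29 were higher in Malt1_L88D in place of 2. Top2a, a topoisomerase of dividing cells, had 1309, 1315 and 1260 CPM in Malt1_V87R and 1285, 1221 and 1263 CPM in Malt1_L88D. Tpx2, a spindle assembly factor, had 335, 330 and 310 CPM against 319, 300 and 307 CPM. The groups overlapped for both genes. Cdc20, which activates the ubiquitin ligase of anaphase, had 119, 111 and 114 CPM in Malt1_V87R and 105, 105 and 106 CPM in Malt1_L88D, and there they did not. Against Vector the list's medians were -0.25 and -0.32, and against Malt1_WT 1.54 and 1.52.

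S-phase genes showed the same lean. Of 32 tested, 29 were held within 25% and 32 within 2-fold, the median difference was 0.07, and 30 were higher in Malt1_V87R. Rrm2 and Rrm1, the subunits of ribonucleotide reductase, stood apart by library. Rrm2 had 383, 388 and 386 CPM in Malt1_V87R and 365, 357 and 353 CPM in Malt1_L88D, and Rrm1 had 354, 359 and 339 against 335, 333 and 324 CPM. The difference in Rrm2 was 0.11 ± 0.04 SE log2 with an adjusted p of 0.66. Against Vector, 3 of the 32 were lower in Malt1_V87R and 13 in Malt1_L88D, and the direct difference between the mutants was called for none. Ndc80, a kinetochore gene on neither list, was chosen for its small p: it had 68.3, 68.3 and 71.9 CPM in Malt1_V87R and 58.1, 59.7 and 61.2 CPM in Malt1_L88D.

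The genes that wild-type Malt1 changes most gave the same picture from another side. They were chosen on the difference between Malt1_WT and Vector, by an adjusted p under 0.05, 2-fold or more and 5 CPM or more in the higher group. The adjusted p came from the edgeR fit of all 15 libraries. The mutant libraries therefore entered the filter, the scaling and the estimate of the spread, but not the difference itself. Over 550 genes that Malt1_WT raised, the mean shift from Vector, as a percentage of the Malt1_WT shift, was 28.0, 28.3 and 29.6% in the Malt1_V87R libraries (28.6% ± 0.853, SD, n = 3) and 29.8, 31.7 and 32.3% in the Malt1_L88D libraries (31.3% ± 1.26, SD, n = 3). Every Malt1_L88D library was above every Malt1_V87R library, by a margin that is small beside the distance to Malt1_WT. Of the 550 genes, 370 (67.3%) were higher in Malt1_L88D, beside 47.9% of all genes, and the median difference was -0.04.

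Over 257 genes that Malt1_WT lowered, the shift was 12.1, 14 and 15.7% in Malt1_V87R and 16.0, 18.2 and 15.8% in Malt1_L88D. The groups again did not overlap, though the gap between the nearest libraries was narrow. The median difference was 0.04, and 184 of the 257 genes were higher in Malt1_V87R. None of the 550 or 257 genes was called between the mutants. At an unadjusted p under 0.05 in edgeR there were 68 of the 550 raised genes, 48 higher in Malt1_L88D and 20 in Malt1_V87R. Of the 257 lowered genes there were 31, 1 higher in Malt1_L88D and 30 in Malt1_V87R. The share over all genes was 5.85%. Leaving the macrophage and dendritic cell list out of the raised genes gave 28.4% and 31.1% over 546 genes. Without replicates 2 and 3 of Malt1_L88D together, the median over the raised genes was -0.02.

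**Figure D3:**
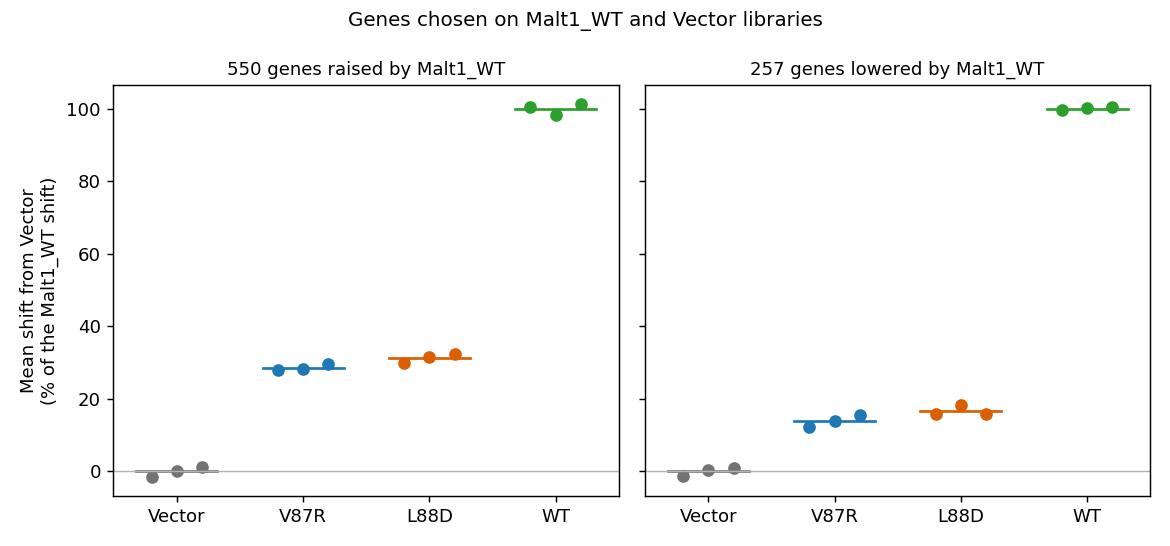
Mean log2 shift from the Vector mean, as a percentage of the mean Malt1_WT shift (vertical axis), for genes chosen on the difference between Malt1_WT and Vector. Points are libraries and lines are group means. Malt1_L88D libraries lie at 29.8 to 32.3% for raised genes (left) and Malt1_V87R libraries at 28.0 to 29.6%.

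Growth and stress pathways were bounded closely. All 34 tested ribosomal protein genes were held within 25% (median 0.04), with 32 higher in Malt1_V87R. That direction rested on 1 library: without replicate 3 of Malt1_V87R, 17 of the 34 were higher in Malt1_L88D and the median was 0.0014. Rps2 had 2589, 2471 and 2555 CPM in Malt1_V87R and 2505, 2471 and 2499 CPM in Malt1_L88D, and its interval lay within 1.08-fold. For nuclear genes of oxidative phosphorylation, 25 of 27 were held within 25% (median 0.06). Atp5b, a subunit of ATP synthase, had 1378, 1351 and 1390 CPM against 1304, 1317 and 1299 CPM, with no overlap and a bound of 1.11-fold. Hypoxia and glycolysis genes were held within 25% in 21 of 24, with Gapdh, a glycolytic enzyme often used as a reference, at 6115, 6016 and 6143 CPM against 6039, 6162 and 6191 CPM. Unfolded protein and integrated stress response genes were held in 30 of 31, including Hspa5, the chaperone BiP, within 1.12-fold. The exception was Cth, at under 0.3 CPM in all 6 libraries.

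Cholesterol synthesis genes were held within 25% in 20 of 25 (median 0.05). Srebf2, the master regulator of that pathway, was held within 1.06-fold. Mvd, an enzyme of the mevalonate pathway, was chosen for its distance: it had 18.5, 16.2 and 18.1 CPM in Malt1_V87R and 12.6, 14.4 and 15.5 CPM in Malt1_L88D, with an adjusted p of 0.66. NRF2 and antioxidant genes were held in 20 of 21, p53 targets in 14 of 18 and YAP/TEAD targets in 13 of 16. Prdx1, a peroxidase of the NRF2 list, was held within 1.06-fold, and Axl, a receptor kinase of the YAP/TEAD list, within 1.08-fold. Cdkn1a, the p21 cell-cycle inhibitor and a p53 target, had 323, 324 and 335 CPM in Malt1_V87R and 329, 362 and 362 CPM in Malt1_L88D, with 997 to 1078 CPM in Malt1_WT.

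All 13 mitochondrially encoded genes were higher in Malt1_V87R, by a median of 0.14 log2, and none was called in the fit of 15 libraries. They are transcribed together from a single circular genome. Without replicate 3 of Malt1_V87R, 2 of the 13 were higher in Malt1_L88D. With upper-quartile or total-count scaling, 1 of the 13 was. mt-Cytb, a subunit of complex III, had 2542, 2601 and 2599 CPM in Malt1_V87R and 2343, 2345 and 2288 CPM in Malt1_L88D, a difference of 0.15 ± 0.04 SE log2 with no overlap. mt-Co1, the member with the most counts, was at the same level in both, with 0.00 ± 0.03 SE log2. mt-Nd5 was held within 1.14-fold. Mitochondrially encoded genes made up 2.58 to 2.65% of all counts in Malt1_V87R and 2.49 to 2.58% in Malt1_L88D, and 7 of the 13 were held within 25%. The part of RNA quality in these shares was not tested.

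Replication-dependent histone genes were not bounded by these data. None of 13 tested was held within 25% and 6 were held within 2-fold, with 4 without replicate 3 of Malt1_V87R and 2 without replicates 2 and 3 of Malt1_L88D. Their mRNAs lack poly(A) tails, and 12 of the 13 were under 5 CPM. Hist1h1c, the exception, had 20.9, 20.01 and 19.6 CPM in Malt1_V87R and 20.2, 15.1 and 19.6 CPM in Malt1_L88D. Hist1h2bc had 3.42, 3.68 and 3.96 CPM against 3.91, 4.57 and 3.43 CPM.

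Markers of cell identity, used to see what the cultures hold, were mostly close or near 0. Of 25 tested mesenchymal and matrix genes, 22 were held within 25%, and of 8 fibroblast markers, 6 were. Mmp14, a matrix metalloprotease gene chosen for its small p, had a log2 difference of -0.11, towards Malt1_L88D, and did not pass the adjusted threshold. Col1a2 and Thbs1, matrix genes, were not held within 2-fold, and Col1a2 was under 1 CPM in every library of the 6. Of 9 tested epithelial genes, 3 were held within 25% and 7 within 2-fold. Krt8, a keratin, had 87.3, 90.4 and 92.2 CPM in Malt1_V87R and 94.6, 97.3 and 93.4 CPM in Malt1_L88D. Endothelial markers were held within 2-fold in 4 of 6, erythroid and platelet markers in 1 of 3, and 1 of 23 T, B and NK cell markers (Lck) had enough counts to test. The summed T, B and NK list came to 2.42 to 3.56 CPM in Malt1_V87R and 2.72 to 3.29 CPM in Malt1_L88D.

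**Figure D4:**
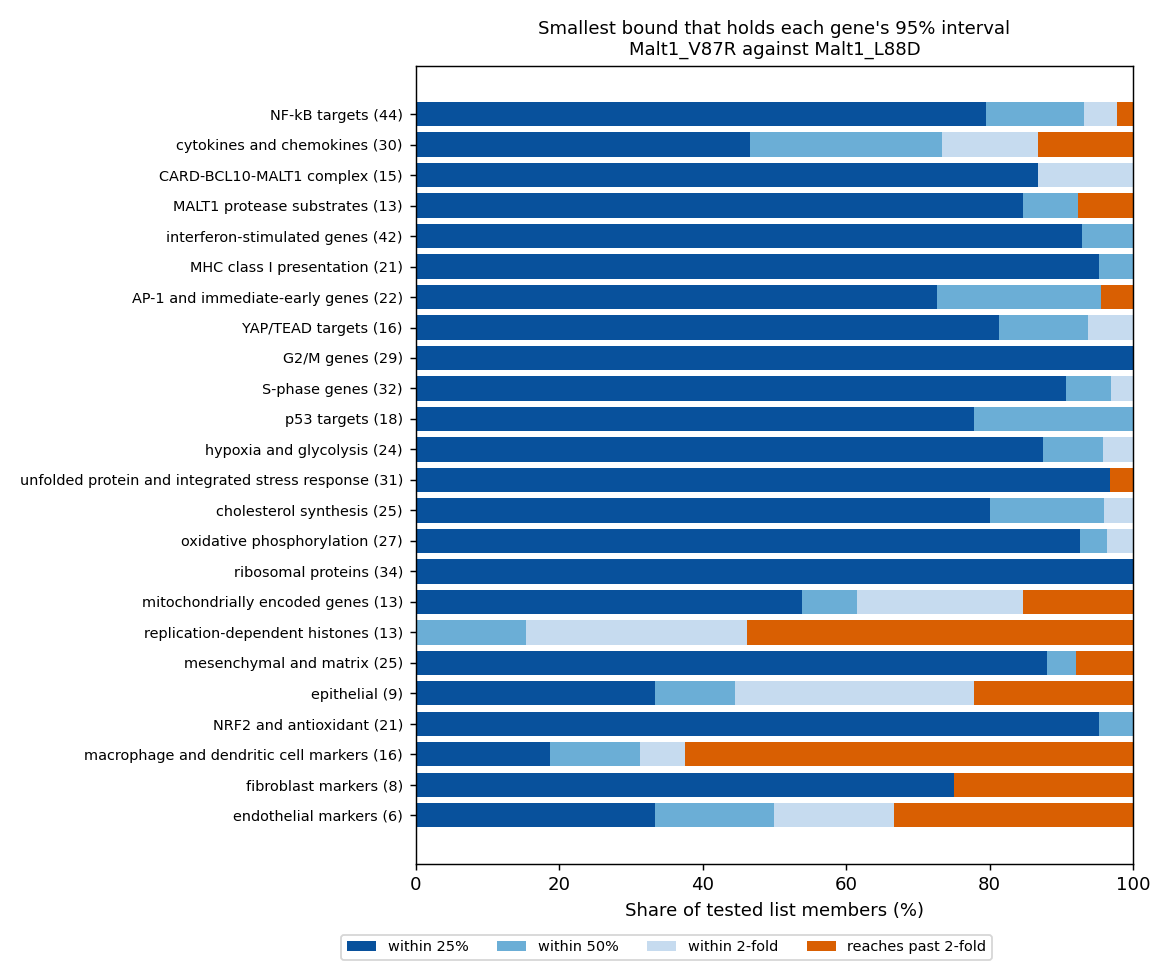
For each list with at least 6 tested genes (number in brackets), bars give the percentage of members whose 95% interval for Malt1_V87R against Malt1_L88D lies within 25%, 50% or 2-fold, or reaches past 2-fold. G2/M and ribosomal protein genes are all within 25%, while 10 of 16 macrophage and dendritic cell markers reach past 2-fold.

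Macrophage-type genes were loosely bounded, and their levels differed among the 3 Malt1_L88D libraries themselves. Of the 30 listed macrophage and dendritic cell markers, 16 were tested, 3 were held within 25% and 6 within 2-fold. The median difference was -0.34, with 12 of 16 higher in Malt1_L88D. Of the 9 with an unadjusted p under 0.05, 8 were higher in Malt1_L88D, and none passed the adjusted threshold. The summed level of the list was 85.5, 124 and 109 CPM in replicates 1, 2 and 3 of Malt1_L88D, and 84.3, 87.2 and 88.7 CPM in Malt1_V87R. It was 64.3 to 65.4 CPM in Vector, 107 to 109 CPM in Malt1_WT and 104 to 113 CPM in Malt1_PD.

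Replicates 2 and 3 of Malt1_L88D were high beside Malt1_V87R, and replicate 1 was closer to Malt1_V87R. Lyz2 (chr10:117277331-117282321) had 5.49, 19.6 and 16.2 CPM in Malt1_L88D and 3.27, 5.54 and 6.22 CPM in Malt1_V87R. Apoe (chr7:19696109-19699188) had 7.07, 15.3 and 11.9 CPM in Malt1_L88D and 4.80, 7.26 and 7.12 CPM in Malt1_V87R. Replicate 1 of Malt1_L88D lay inside the Malt1_V87R range for both genes, so the groups overlapped. Csf1r, the receptor for macrophage colony-stimulating factor, had 0.69, 2.71 and 1.597 CPM in Malt1_L88D and 0.41, 0.60 and 0.50 CPM in Malt1_V87R. For Csf1r, replicate 1 of Malt1_L88D was thus also above every Malt1_V87R library. Csf1r had the smallest unadjusted p of all genes, with a difference of -1.76 ± 0.39 SE log2 and an adjusted p of 0.42. The 3 libraries taken as Malt1_PD were also above every Malt1_V87R library for these genes. They had 13.0 to 15.7 CPM of Lyz2, 10.7 to 12.4 of Apoe and 2.31 to 3.10 of Csf1r. Vector had 5.59 to 5.72 CPM of Lyz2, 7.40 to 9.25 of Apoe and 0.88 to 1.02 of Csf1r. Malt1_WT had 2.38 to 6.91, 5.07 to 5.72 and 1.44 to 1.74 CPM. Every Malt1_V87R library was therefore below Vector for Apoe and Csf1r, and below Malt1_WT for Csf1r.

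Replicate 1 was also the lowest Malt1_L88D library for rarer members. Ctss, a lysosomal protease of antigen-presenting cells, had 3, 41 and 27 counts in Malt1_L88D and 0, 10 and 8 counts in Malt1_V87R. Adgre1, which encodes the F4/80 antigen, had 1, 17 and 15 counts against 1, 2 and 4. Laptm5, a lysosomal membrane protein of blood cells, had 1, 20 and 15 counts against 0, 7 and 4. Replicate 1 was the lowest Malt1_L88D library for 12 of the 16 tested genes (75%), beside 32.1% of all genes, and in Malt1_V87R replicate 1 was the lowest for 9 of the 16 (56.2%), beside 31.0% of all genes.

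Other genes of the list did not follow this split among the Malt1_L88D libraries. Mpeg1, a pore-forming protein of phagocytes and the member of highest level, had 27.2, 28.1 and 27.0 CPM in Malt1_V87R and 26.8, 30.5 and 27.0 CPM in Malt1_L88D. Both were above Vector (4.55 to 5.90 CPM) and Malt1_WT (9.07 to 11.5 CPM). Fcer1g, an Fc receptor chain, had 17.4, 14.8 and 15.5 CPM against 14.4, 14.9 and 16.0, and Cd14, a lipopolysaccharide co-receptor, had 8.68, 7.40 and 8.98 CPM against 8.14, 8.57 and 8.40. Cd68, a lysosomal glycoprotein, was higher in all 3 Malt1_L88D libraries, at 14, 16.2 and 13.7 CPM against 11.7, 10.6 and 11.8. Cd74 went the other way, with 6.08, 5.44 and 5.47 CPM in Malt1_V87R and 4.29, 4.95 and 4.08 CPM in Malt1_L88D. Its groups did not overlap, and its adjusted p was 0.82 in edgeR. It was the 1 tested member with an unadjusted p under 0.05 that was higher in Malt1_V87R. Genes with too few counts to test had at most 15 counts in a library, and they did not all go 1 way. Tyrobp had 0, 7 and 5 counts in Malt1_L88D and 0, 2 and 2 in Malt1_V87R. Ptprc, encoding CD45, had 1, 2 and 5 counts against 0, 0 and 2. C1qc, a complement gene, had 1, 10 and 10 against 0, 1 and 1. Itgam, an integrin gene, had 2, 4 and 2 against 2, 6 and 2, and Trem2 had 0 in all. Some leaned towards Malt1_V87R. H2-Ab1 had 2, 5 and 3 counts in Malt1_L88D and 8, 15 and 3 in Malt1_V87R. Cd86 had 1, 0 and 0 against 2, 4 and 3, and Xcr1 had 0, 0 and 0 against 2, 2 and 4. A count of 0 allows up to 3 counts in a library, and such limits cover counting error only.

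The direction of the list, and of some of its genes, changed in the fit when replicates 2 and 3 of Malt1_L88D were left out. With both left out, an alternative chosen after seeing the data, the median of the list was 0.11 in place of -0.34, and 5 of 16 genes were higher in Malt1_L88D. Ctss, Adgre1 and Laptm5 then had differences of 0.62, 0.80 and 1.41 log2, with 3, 1 and 1 counts in the Malt1_L88D library that remained. Other members kept their direction with smaller differences: -0.45 for Csf1r, -0.13 for Lyz2, -0.14 for Apoe, -1.31 for C1qb, a complement gene, and -0.30 for Cd68. This alternative sets replicate 1 of Malt1_L88D against all 3 Malt1_V87R libraries. Beside replicate 1 of Malt1_V87R alone, it was higher for Lyz2 (5.49 against 3.27 CPM), Apoe (7.07 against 4.80) and Csf1r (0.69 against 0.41). It was lower for Cd14 (8.14 against 8.68), Fcer1g (14.4 against 17.4) and Cd74 (4.29 against 6.08). The labels do not say whether equal numbers mark a pair. Without replicate 1 of Malt1_L88D, Apoe and Csf1r passed the test, with adjusted p-values of 0.0008 and 0.00298 in edgeR. The part of cells or RNA of another kind in 2 of the libraries was not tested.

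**Figure D5:**
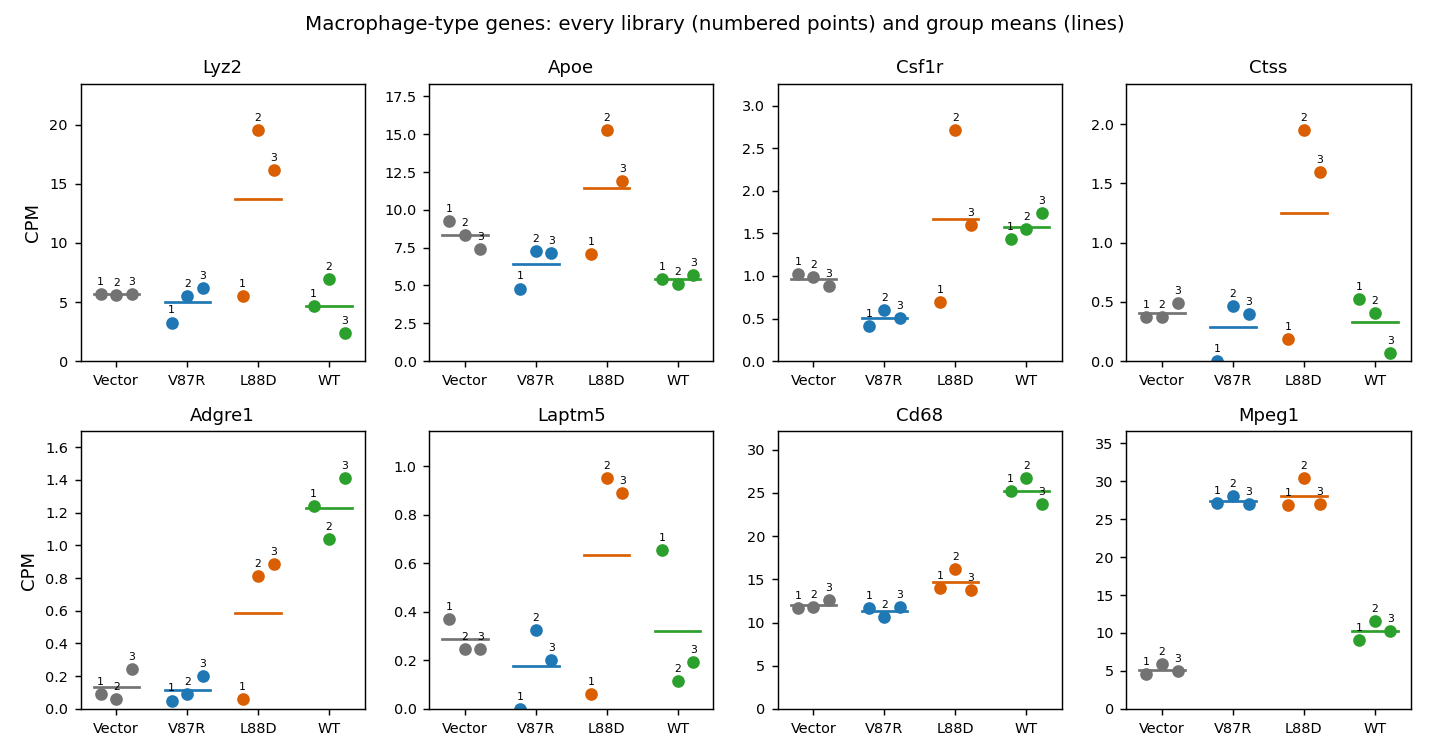
Levels in CPM (vertical axes from 0) of 8 macrophage-type genes in each library (points numbered by replicate) and the group mean (line) of Vector, Malt1_V87R, Malt1_L88D and Malt1_WT. For Lyz2, Apoe, Csf1r, Ctss, Adgre1 and Laptm5, replicates 2 and 3 of Malt1_L88D stand above its replicate 1, while its Mpeg1 values lie at 26.8 to 30.5 CPM.

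Few genes varied between libraries of a single mutant. A gene was counted as uneven when its highest library in a group had at least 20 counts and at least 4 times the CPM of the lowest, with the lowest set to no less than 3 counts. This held for 23 genes in Malt1_V87R and 24 in Malt1_L88D, of 12902 rows with at least 20 counts in 1 of the 6 libraries. In the other groups there were 19 such genes in Vector, 21 in Malt1_WT and 24 in Malt1_PD. All were rare: the highest count of any of them was 29 in Malt1_V87R and 41 in Malt1_L88D. Only 1, Gm33699, was uneven in both mutants. Predicted genes or unnamed transcripts made up 12 of the 23 and 13 of the 24.

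By spread, the first named gene in Malt1_V87R was Ppm1e, a phosphatase of brain. It had 22, 10 and 2 counts, Aoc3, a vascular amine oxidase, had 11, 2 and 20, and Fam227a had 16, 21 and 3. Then came Capn12, a calpain protease with 25, 5 and 15 counts, and Hpgds, a prostaglandin D synthase with 20, 7 and 4. Spon1, Dnpep and Zfp85os complete the first 8 named genes, with ratios of 4.56 to 4.83. Replicate 1 was the highest library for 14 of the 23 genes. No member of the macrophage and dendritic cell list was among them.

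In Malt1_L88D, 2 of the 24 uneven genes, Ctss and Laptm5, are on the macrophage and dendritic cell list. Ctss had the largest range, 10.3-fold, and Laptm5 had 1, 20 and 15 counts. Sirpa, an inhibitory receptor of myeloid cells that is not on the list, had 1, 20 and 21 counts. Its difference between the mutants was -2.06 log2, and 1.41 without replicates 2 and 3 of Malt1_L88D. Fcna, a ficolin made by macrophages, had 4, 23 and 13 counts. Of the other named genes, Rasgef1c had 3, 26 and 13 counts, Tigd3 had 6, 33 and 30, Tenm2 had 4, 24 and 8, and Txk, a kinase of T cells, had 10, 6 and 21. Replicate 1 was the lowest library for 11 of the 24 genes. With a minimum of 50 counts in the highest library, no gene of either mutant was uneven.

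The named-gene rule asked for called genes, and with none called, some of the genes next in line by unadjusted p are given as a description. Of the first 20, 10 were higher in each mutant. Add3 (adducin, a membrane skeleton protein, chr19:53140443-53247399) had 28.2, 30.6 and 29.9 CPM in Malt1_V87R and 36.9, 35.7 and 36.0 CPM in Malt1_L88D. Its groups were far apart beside their spread, and the difference was -0.29 ± 0.06 SE log2 with an adjusted p of 0.42. Myadm, a membrane protein first described in myeloid differentiation, had 16.9, 18.1 and 19.9 CPM against 23.2, 23.3 and 22.8. Itgb3, integrin beta 3, had 35.7, 38.3 and 41.2 CPM against 41.9, 47.2 and 46.4. In the other direction, Nbn, a DNA break sensor, had 40.0, 41.3 and 40.3 CPM in Malt1_V87R and 35.5, 36.3 and 30.5 CPM in Malt1_L88D. Trim54, a gene of low level, had 1.58, 1.49 and 1.86 CPM in Malt1_V87R and 0.69, 0.62 and 1.12 CPM in Malt1_L88D. Its difference was larger, at 1.03 ± 0.26 SE log2 (95% interval 0.49 to 1.56), with an adjusted p of 0.66 in edgeR. For all of these genes the libraries of the mutants did not overlap, which a choice by small p favours. The lack of overlap is therefore no separate evidence of a difference. The share of all genes without overlap is not given here.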

How the data were processed

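RNA sequencing of 15 E0771 libraries was analysed, of which the 3 Malt1_V87R and 3 Malt1_L88D libraries are compared. Per the labels' protocols, total RNA was made into stranded libraries and read as paired ends of 150 bases. Raw read counts by gene symbol are what the authors deposited. For the build GRCm38.p6, the submitters' processing notes list featureCounts 1.6.3, STAR 2.7.3a and Trim Galore 0.6.0. No source used here gives the annotation, the strand setting or the treatment of multimapping reads, so genes with near-identical copies and antisense partners are uncertain. Positions are from GENCODE M21, where 55341 of 55571 rows matched. Columns were matched to samples by title. Those named for a cysteine substitution were taken as Malt1_PD, the only group without columns of its own. They enter the shared estimate of the spread, and are otherwise given only for macrophage-type genes and the count of uneven genes.

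Genes were filtered with filterByExpr and fitted in edgeR 4.0.16 (R 4.3.3) with TMM factors (0.973 to 1.015) and a robust quasi-likelihood model with 1 mean per group. Tests were two-sided, with Benjamini-Hochberg adjustment over 14571 genes and a threshold of 0.05. Intervals at 95% use the fit's standard errors and moderated degrees of freedom. The common biological coefficient of variation was 4.61%. The shifts over genes that Malt1_WT changed are means of log2 CPM with a pseudocount of 0.5. The scripts were tested on simulated data. Alternatives were RLE, upper-quartile and total-count scaling, DESeq2 1.42.0, limma-voom (limma 3.58.1), no filter, the 6 libraries alone, a test against 1.2-fold, a replicate block, and each replicate left out.

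The comparison and its 26 gene lists were chosen with earlier results of these data known. The named-gene rule took Malt1, genes called between the mutants, up to 6 called members and the 2 of highest CPM from each list, and the 8 largest ratios among uneven genes. Other genes were chosen after their values were seen, for a small unadjusted p or for their role.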

Additional observations from a re-analysis of the deposited data

How the results depend on the processing

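Between the mutants, 0 genes were called with 13 of 16 alternatives, which include DESeq2, limma-voom, all scalings, the test against 1.2-fold and the replicate block. The exceptions were 5 genes with no filter on low counts, 25 with the 6 libraries alone, and a range of 0 to 2 with 1 replicate left out. The cause was not tested. Genes held within 25% ranged from 6324 to 8819, and over all genes no bounded count moved by 1.5 times. Within lists some did, as given beside them: cytokines and chemokines within 25% (14, and 8 or 7), MALT1 substrates within 25% (11, and 6) and histones within 2-fold (6, and 4 or 2). Macrophage and dendritic cell markers within 25% went from 3 to 1 without replicates 2 and 3 of Malt1_L88D. Malt1 differed by 0.12 to 0.17 log2, and with the 6 libraries alone (0.15, adjusted p = 0.022) it passed the threshold. The adjusted p of Malt1 ranged from 0.022 to 0.999 over the alternatives. Calls against Vector ranged from 1130 to 1590 for Malt1_V87R and from 1735 to 2463 for Malt1_L88D with 1 replicate left out, and were 783 for Malt1_L88D without its replicates 2 and 3, where 1 library remains and is assumed to vary like the others. That alternative gave a median of -0.0167 over genes raised by Malt1_WT. Uneven genes numbered 79 in Malt1_V87R and 78 in Malt1_L88D at a ratio of 3, 5 in each at a ratio of 6, and 0 in each at 50 counts, and with 1 replicate left out 4 to 12 and 9 to 11, since 2 libraries span less than 3. Some values changed sign under at least 1 alternative. These were Ctss, Adgre1, Laptm5 and Sirpa, the median of all genes (-0.00916 to 0.00718), and the medians of the macrophage list (-0.63 to 0.11), histones (-0.08 to 0.28), cytokines and chemokines (-0.08 to 0.05), NF-kB targets (-0.0021 to 0.04), the CARD complex (-0.03 to 0.0042), MALT1 substrates (-0.0016 to 0.05), interferon-stimulated genes (-0.04 to 0.02), NRF2 genes (-0.01 to 0.02), hypoxia genes (-0.04 to 0.0032), mesenchymal genes (-0.0088 to 0.02) and fibroblast markers (-0.02 to 0.05). Over all genes tested, deviations of same-numbered libraries correlated at 0.04, 0.02 and -0.02. Those of libraries with different numbers correlated at -0.05 to 0.02, and the replicate block called 0 genes. These values cover all genes together, and a shared replicate effect on a few genes was not tested. Depth limits what can be said under 5 CPM, where 2137 of 4750 genes were not held within 2-fold.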
